A study of Homo sapiens with 14 samples.

Results

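Upstream start triplets are AUG triplets that lie inside the annotated 5′ UTR of an mRNA, before the AUG at which its main coding sequence begins. They were taken from the human cell line K562, an established erythroid leukemia line, in 4 transcriptome-wide probing profiles: icSHAPE and icLASER, each inside living cells (in vivo) and on extracted RNA that was folded again (in vitro). Every AUG wholly inside an annotated 5′ UTR was counted in protein-coding transcripts whose length in the profiles equalled that in GENCODE release 44 (GRCh38), with 1 transcript per gene, the one of highest RPKM (reads per kilobase of transcript, scaled to the mapped reads). This gave 3117 upstream triplets in 977 genes, of 71848 AUG triplets in the 2374 chosen transcripts. The others were 2374 main start codons, 41641 AUGs inside coding sequences and 24716 AUGs in 3′ UTRs.

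A ribosome that scans from the cap meets the upstream triplets first. Where it starts there, it translates an upstream open reading frame (uORF), which is known in many mRNAs to lower translation of the main frame and in some stress-response mRNAs to raise it when initiation is limiting. The bases around the AUG, above all a purine at position -3 and a G at +4 (the A being +1), are known to set how often a scanning ribosome starts.

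The 14 libraries came from K562 cells and held, for icSHAPE, 3 in vivo and 2 in vitro with 3 DMSO controls, and, for icLASER, 2 each in vivo, in vitro and as controls without UV light. In icSHAPE the RNA was acylated for 5 min with 100 mM NAI-N3, a reagent that reacts with the 2′-hydroxyl of flexible nucleotides. In icLASER the RNA met NAz-N3, added from a 1 M stock, under 10 min of UV light, which couples it to the C8 position of solvent-exposed purines. Each modified position stops reverse transcription, and the stops are read by sequencing. The deposited profiles give each nucleotide of a transcript a score from 0 (unreactive) to 1, with 13 nucleotides outside this range in icSHAPE in vitro and 3 in icSHAPE in vivo. Each of the 4 profiles pools all replicates of its condition, and the 2 profiles of a reagent share their control libraries. There is therefore no replicate check on any difference below, no p-value is given, and genes and triplets are not replicates. The number of reads behind each score is not given with the profiles, and depth is therefore unknown. Of 9 erythroid markers 8 were listed in the profiles, from TFRC at a mean RPKM of 13.9 to HBG1 at 1936, and TAL1 was not listed. None of 7 markers of other cell types was listed (0 of CD3E, CD79A, CD14, MPO, ALB, KRT5 and COL1A1).

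The triplets described most fully are shown here in their sequence, so that the bases before and after the AUG can be read beside the scores. Each runs 5′ to 3′ on the mRNA, with up to 10 nucleotides on either side, and the capitals mark the upstream AUG. The sequences are GENCODE release 44 transcript sequences on GRCh38. The first 6 are from genes known for their uORFs. ATF4, DDIT3 and CEBPG encode transcription factors of the integrated stress response and its bZIP partners.
ATF4, 258 nt before the main start, chr22:39520586-39520588, plus strand, exon 2: ccgcccacagAUGuaguuuucuc
ATF4, 196 nt before, chr22:39520648-39520650, plus strand, exon 2: cacggccaccAUGgcguauuagg
ATF4, 97 nt before, chr22:39520747-39520749, plus strand, exon 2: ggcuuaagccAUGgcgcuucuca
DDIT3, 129 nt before, chr12:57520478-57520480, minus strand, exon 1: ugagcguaucAUGuuaaagauga
DDIT3, 120 nt before, chr12:57520469-57520471, minus strand, exon 1: cauguuaaagAUGagcggguggc
CEBPG, 92 nt before, chr19:33379148-33379150, plus strand, exon 2: gcggagguacAUGugaagauuuu

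The next 3 show a closed, an overlapping and an in-frame upstream triplet from abundant mRNAs. RPS24 and RPS6 encode proteins of the small ribosomal subunit, and ACTB encodes beta-actin.
RPS24, 63 nt before, chr10:78033839-78033841, plus strand, exon 1: gcgcguugauAUGauuggccggc
RPS6, 11 nt before, chr9:19379540-19379542, minus strand, exon 2: cguacuuucuAUGagaagcguau
ACTB, 9 nt before, chr7:5529806-5529808, minus strand, exon 1: uuugccuuuuAUGcucaccaugg

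The last 5 had some of the highest and lowest in vivo minus in vitro differences. They lie in the 5′ UTRs of LYAR (a nucleolar protein), UBA2 (a subunit of the SUMO-activating enzyme), UQCRQ (a subunit of respiratory complex III), GSTO1 (a glutathione transferase) and NDUFB8 (a subunit of respiratory complex I).
LYAR, 104 nt before, chr4:4286567-4286569, minus strand, exon 2: ucagagagcaAUGuuugcugucu
UBA2, 98 nt before, chr19:34458848-34458850, plus strand, exon 1: cccaauuguuAUGuaugugccag
UQCRQ, 68 nt before, chr5:132866637-132866639, plus strand, exon 1: gccggaaAUGacgaacgagu
GSTO1, 204 nt before, chr10:104254725-104254727, plus strand, exon 1: ggccagcgagAUGcuuugacaca
NDUFB8, 34 nt before, chr10:100529881-100529883, minus strand, exon 1: gccuuugcgcAUGugcagaaggg

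The upstream triplets fell into 3 frame classes. In 2460 (78.9%) an in-frame stop codon ended before the main start, so the upstream frame was closed. Another 589 (18.9%) were out of frame with the main start and had no stop before it, so the frame overlapped the main coding sequence. The remaining 68 (2.18%) were in frame with the main start with no stop between, and would add residues to the amino terminus. Closed frames had a median of 12 codons, the AUG included (quartiles 5 and 26), and the longest had 246. In 146 closed frames the AUG was followed at once by a stop codon, as in the first ATF4 triplet and the CEBPG triplet above. Closed frames ended in UGA 1225 times, in UAG 620 times and in UAA 615 times. Of the closed triplets, 918 shared their stop codon with another upstream triplet, as both DDIT3 triplets do, so that the 2460 closed triplets made 1938 frames.

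Of the 2306 genes with a 5′ UTR long enough to hold a triplet, 42.4% had an upstream AUG. Among these 977 genes, 361 had 1, 224 had 2 and 392 had 3 or more, and the gene with the most had 39. The 392 genes held 74.0% of all upstream triplets. AUG was less frequent in 5′ UTRs than in the other regions, at 7.25 per kb against 16.9 per kb in 3′ UTRs and 19.1 per kb in coding sequences. The GC content was 60.8% in the 5′ UTRs and 43.0% in the 3′ UTRs. Relative to the frequency that each region's own base composition gives, AUG occurred 0.602 times as often in 5′ UTRs and 0.968 times as often in 3′ UTRs. By gene family, an upstream triplet was present in 31 of 74 cytosolic ribosomal protein genes (RPL and RPS), 22 of 51 mitochondrial ribosomal protein genes, 12 of 37 proteasome genes (PSM), 8 of 30 initiation factor genes (EIF), 10 of 32 NDUF genes, 7 of 18 zinc finger genes (ZNF) and 7 of 16 PPP phosphatase genes. The share ran from 26.7% for EIF, with a median 5′ UTR of 64 nt, to 43.8% for PPP, with a median of 193 nt. These counts hold for the chosen transcript of each gene, picked only among those of equal length in GENCODE. It may not be the main isoform of the gene. How many of these triplets lie in coding exons of other transcripts was not counted by family.

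The start context differed between the upstream triplets and the main starts. Both favoured bases, a purine at -3 and a G at +4, stood at 19.2% of upstream triplets (588 of 3066 with both positions inside the transcript), against 43.0% of main starts and 12.8% of 3′ UTR AUGs. Neither base stood at 31.6% of upstream triplets, 8.85% of main starts and 37.7% of 3′ UTR AUGs. The strong context was about as frequent in closed frames (19.6%), overlapping frames (17.2%) and in-frame triplets (20.6%). The ATF4 triplets 196 and 97 nt before the main start had the strong context, and the ATF4 triplet 258 nt before it had neither base.

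Many upstream triplets were not outside coding sequence in every isoform. Of the 3117, 899 (28.8%) in 353 genes lay inside a coding exon of another annotated transcript of the same gene. This held for 48.7% of overlapping triplets, 29.4% of in-frame triplets and 24.1% of closed triplets. It was the case for the RPS6 and UBA2 triplets shown above and not for those of ATF4, DDIT3, CEBPG or RPS24. Reads from such isoforms cannot be told apart from those of the chosen transcript at these positions. The levels are therefore also given for the 2218 triplets of 808 genes outside every coding exon.

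A triplet was counted as scored where all 3 nucleotides carried a score. Of the 3117 upstream triplets, 1482 were scored in icSHAPE in vitro, 1919 in icSHAPE in vivo, 1986 in icLASER in vitro and 1898 in icLASER in vivo. In all 4 profiles 1075 triplets of 402 genes were scored, and 442 were scored in none. The scores were sparse. All 3 nucleotides were at 0 in 53.1%, 39.9%, 36.4% and 51.0% of the scored upstream triplets, in that order of profiles, against 25.1%, 12.2%, 12.2% and 24.2% of the main starts. No score above 0 lay within 15 nt on either side in 15.2%, 10.6%, 9.47% and 16.2% of the scored upstream triplets, against at most 2.68% of the main starts in any profile. Outside coding exons these shares were 22.7%, 16.7%, 13.9% and 23.3%, and inside a coding exon of another transcript 0.975%, 0.141%, 0.307% and 2.87%. A low mean score of upstream triplets thus moved together with a high share of positions at which nothing was scored above 0, and the part of thin sequencing coverage in the levels was not tested.

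Averaged over the triplet and then over genes, the score of upstream triplets was 0.155 ± 0.177 (SD over 508 genes) in icSHAPE in vitro. It was 0.173 ± 0.174 (658 genes) in icSHAPE in vivo, 0.238 ± 0.212 (669 genes) in icLASER in vitro and 0.142 ± 0.158 (668 genes) in icLASER in vivo. Main starts of all genes had 0.201, 0.220, 0.281 and 0.193 in the same order, and 3′ UTR AUGs had 0.0983, 0.115, 0.157 and 0.215. The upstream level thus lay between the other 2 in every profile except icLASER in vivo, where it was the lowest of the 3. Outside coding exons the upstream triplets had 0.135, 0.156, 0.217 and 0.121, and those inside a coding exon of another transcript had 0.191, 0.205, 0.270 and 0.187. The SD over genes of the upstream triplets was larger than each difference between an upstream mean and another of these means.

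Within the triplet the 3 nucleotides were unequal. In icSHAPE in vitro the mean over upstream triplets was 0.162 at the A, 0.0967 at the U and 0.136 at the G, and in vivo it was 0.175, 0.0996 and 0.197. In icLASER in vitro it was 0.117, 0.176 and 0.346, and in vivo 0.0688, 0.115 and 0.218. The U was the lowest of the 3 in both icSHAPE profiles, and the G the highest in both icLASER profiles. The position with the highest mean was the nucleotide before the A, at 0.362 and 0.479 in icSHAPE in vitro and in vivo and 0.383 and 0.302 in icLASER. The same peak stood before main starts (0.531, 0.604, 0.482 and 0.408) and before 3′ UTR AUGs (0.302, 0.359, 0.261 and 0.316), so it was not particular to the upstream triplets. At 3′ UTR AUGs in icLASER in vitro the G was higher still (0.31).

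That peak bears on how the scores are read. Over all nucleotides of the chosen transcripts, the icSHAPE in vivo score given to the nucleotide before an A averaged 0.288 and before a U 0.248, against 0.0842 before a C and 0.0791 before a G. At the nucleotide itself the 4 bases had 0.209 (A), 0.19 (U), 0.131 (C) and 0.173 (G). The icSHAPE scores thus depended more on the following base than on the base they were listed for. In icLASER in vitro both dependences were present, with 0.240 at the nucleotide before an A and 0.309 at a G itself. If each score is assigned to the next nucleotide, the A of an upstream triplet takes the value of the position before it, and the U and G take those listed for A and U.

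Around the triplet, the mean over the 27 positions from -30 to -4 of upstream triplets was 0.130, 0.163, 0.164 and 0.129 in the order of profiles given above, and 0.142, 0.176, 0.175 and 0.132 over +6 to +32 (counted from the A as 0). Main starts were higher on both sides, between 0.187 and 0.236 before and between 0.186 and 0.232 after. The main coding sequences showed a 3-nt pattern: over the 10 codons after the AUG, the icLASER in vitro mean was 0.257 at the first, 0.187 at the second and 0.252 at the third codon position. In the upstream frames the same 3 means were 0.169, 0.176 and 0.181. In icSHAPE in vivo they were 0.253, 0.188 and 0.223 after main starts and 0.174, 0.174 and 0.182 after upstream triplets. The rhythm of the main frames was thus absent from the mean over upstream triplets. The in-frame triplets, few in number, had 0.204, 0.166 and 0.229 in icSHAPE in vivo. Where such a triplet lies close to the main start, as in ACTB (9 nt before), these codons run into the main coding sequence. Another limit is that 29.4% of in-frame triplets lay inside a coding exon of another transcript. The lower quartile of closed frames was 5 codons, so many closed frames end within these 10.

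The first comparison asked whether a gene's upstream triplets were as reactive as its own main start. In icSHAPE in vitro the upstream mean was 0.156 and the main start 0.171 over 505 genes scored at both, a difference of -0.0153 ± 0.272 (SD over genes), with 232 genes higher upstream and 216 lower. In icSHAPE in vivo the means were 0.174 and 0.202, a difference of -0.0277 ± 0.267 over 654 genes (295 higher, 323 lower). In icLASER in vitro they were 0.239 and 0.257, a difference of -0.0180 ± 0.295 over 663 genes (297 higher, 336 lower). In icLASER in vivo they were 0.143 and 0.176, a difference of -0.0325 ± 0.242 over 661 genes (278 higher, 290 lower). All 4 means were below 0, the medians were 0 or -0.0090, and the numbers of genes on either side were nearly equal. The sign was not stable: in icSHAPE in vitro it turned, to 0.0076, among triplets with a score above 0 nearby, and in icLASER in vitro it turned, to 0.0061, with each score assigned to the next nucleotide. These paired means were not matched for start context, which was strong at 19.2% of upstream triplets and 43.0% of main starts. In icSHAPE in vivo, upstream gene means against main starts of all genes were 0.111 and 0.164 in the strong context. They were 0.177 and 0.269 with 1 favoured base and 0.196 and 0.239 with neither, with SDs over genes between 0.137 and 0.234. Upstream means were lower in each context in every profile, over genes that were not the same.

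Outside coding exons the gap to the main start was wider, at -0.0403, -0.0556, -0.0475 and -0.0442 in the 4 profiles. In these 380, 500, 507 and 508 genes, 140, 183, 195 and 179 were higher upstream and 181, 274, 283 and 230 were lower. Main starts of genes that have an upstream triplet were themselves lower than those of genes that have none. Their means were 0.173 against 0.220 in icSHAPE in vitro, 0.202 against 0.233 in icSHAPE in vivo, 0.260 against 0.296 in icLASER in vitro and 0.177 against 0.204 in icLASER in vivo. The SD over genes in these 8 groups was between 0.188 and 0.230. Main starts with all 3 nucleotides at 0 were also more frequent in genes that have an upstream triplet. Their shares were 32.3% against 20.1% in icSHAPE in vitro, 15.4% against 10.0% in icSHAPE in vivo and 13.8% against 11.1% in icLASER in vitro. The part of sequencing coverage in this difference was not tested.

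The second comparison set upstream triplets against AUGs in the 3′ UTR of the same mRNA, which lie beyond the stop codon of the main frame. In icSHAPE in vitro the upstream mean was 0.149 and the 3′ UTR mean 0.0946 over 378 genes, a difference of 0.0545 ± 0.193, with 199 genes higher upstream and 176 lower and a median of 0.0154. In icSHAPE in vivo it was 0.176 against 0.114 (0.0625 ± 0.194, 483 genes, 275 higher and 207 lower). In icLASER in vitro it was 0.244 against 0.157 (0.0872 ± 0.230, 517 genes, 319 higher and 197 lower). In icLASER in vivo the order was the opposite, 0.141 against 0.216 (-0.0754 ± 0.197, 515 genes, 155 higher and 358 lower). The signs of these 4 means were the same under every alternative tried. Outside coding exons the means were 0.0384, 0.0531, 0.0713 and -0.0977, but in icSHAPE in vitro fewer genes were higher (138) than lower (152). Main starts of the same genes behaved alike against the 3′ UTR, at 0.0706, 0.0918, 0.107 and -0.0480 over 420, 542, 591 and 584 genes. The change of sign in icLASER in vivo was thus shared by the upstream triplets and the main starts.

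Frame class made a small difference that depended on annotation. Overlapping triplets had gene means of 0.169, 0.174, 0.263 and 0.16 in the 4 profiles, and closed triplets had 0.147, 0.172, 0.225 and 0.131, so that overlapping minus closed was 0.0223, 0.0020, 0.0384 and 0.0290. The in-frame triplets, scored in only 25 to 36 genes, had 0.129, 0.151, 0.209 and 0.191. Overlapping triplets lay inside a coding exon of another transcript more often than closed ones (48.7% and 24.1%). Outside coding exons overlapping minus closed was -0.0099, -0.0232, 0.0235 and 0.0064, with the sign turned in both icSHAPE profiles. Within the genes that hold both classes the difference was 0.0246 (125 genes), 0.0269 (169 genes), 0.0388 (158 genes) and 0.0559 (154 genes), with SDs over genes between 0.212 and 0.290. Overlapping triplets were higher in 48, 79, 83 and 77 of these genes and lower in 53, 70, 66 and 51. The medians were 0, 0, 0.039 and 0.0081. The part of the exon annotation in the difference between frame classes was not tested separately within genes.

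The triplets were also divided by the length of the frame and the place in the leader. In icSHAPE in vivo, closed frames of 30 or more codons had 0.147, those of 10 to 29 codons 0.166, those of 2 to 9 codons 0.152 and start-stop frames 0.261 (163, 329, 326 and 70 genes). In icLASER in vivo the 4 means were 0.10, 0.128, 0.131 and 0.178. The start-stop frames, the AUG being followed by a U in all of them, were the highest of the 4 in every profile (0.161, 0.261, 0.303 and 0.178). All upstream triplets followed by a U, the start-stop frames included, had 0.175, 0.230, 0.288 and 0.181. The other triplets with that base were not averaged separately. By distance to the main start, triplets nearer than 30 nt had 0.158, 0.189, 0.284 and 0.168 in the 4 profiles, and those at 100 nt or more had 0.138, 0.169, 0.210 and 0.125. All 3 nucleotides were at 0 in 22.0% of the near and 45.7% of the far triplets in icSHAPE in vivo. The first upstream triplet of a transcript had 0.153, 0.179, 0.237 and 0.135 and the later ones 0.149, 0.158, 0.224 and 0.144. A gene's only upstream triplet had 0.191, 0.207, 0.276 and 0.149, and triplets of genes with 3 or more had 0.120, 0.149, 0.206 and 0.131.

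The nucleotides of closed frames were compared with the rest of the same 5′ UTR, using transcripts with at least 10 scored nucleotides on both sides. Inside closed frames the mean was 0.145, 0.179, 0.194 and 0.137 in the 4 profiles and outside it was 0.159, 0.19, 0.202 and 0.162. The difference was -0.0137, -0.0109, -0.0085 and -0.0256, with SDs over genes between 0.0975 and 0.128. It was below 0 in 252 of 420, 312 of 552, 304 of 550 and 332 of 545 genes. The part of base composition, position in the leader and exon annotation in this difference was not tested.

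Context showed the most regular difference among the upstream triplets. Triplets in the strong context had gene means of 0.108, 0.111, 0.146 and 0.0919 in the 4 profiles, against 0.165, 0.196, 0.267 and 0.154 for those with neither base. Strong minus neither was -0.0567, -0.0849, -0.121 and -0.0621, with SDs over genes between 0.137 and 0.233. Main starts differed in the same direction (-0.0376, -0.0749, -0.0970 and -0.0576), and so did AUGs of 3′ UTRs (-0.0394, -0.0616, -0.0938 and -0.127). The direction was thus not particular to triplets that a scanning ribosome meets.

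The base at -3 made less difference: in icSHAPE in vivo the gene means were 0.165 with A, 0.161 with G, 0.189 with C and 0.144 with U. The base at +4 moved with the context. In icSHAPE in vivo the G of upstream triplets had a mean of 0.320 before an A, 0.276 before a U, 0.117 before a C and 0.0939 before a G. In icLASER in vitro the 4 means were 0.517, 0.391, 0.277 and 0.216. Triplets of the strong context all have G at +4, and the lower score fell on the U (0.0251 against 0.136 with neither base in icSHAPE in vivo) and the G (0.0946 against 0.245), while the A had 0.186 against 0.170. With each score assigned to the next nucleotide, strong minus neither shrank to -0.0144, -0.0290, -0.0660 and -0.0229. The part of the following base in the context difference was not tested separately.

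**Figure D1:**
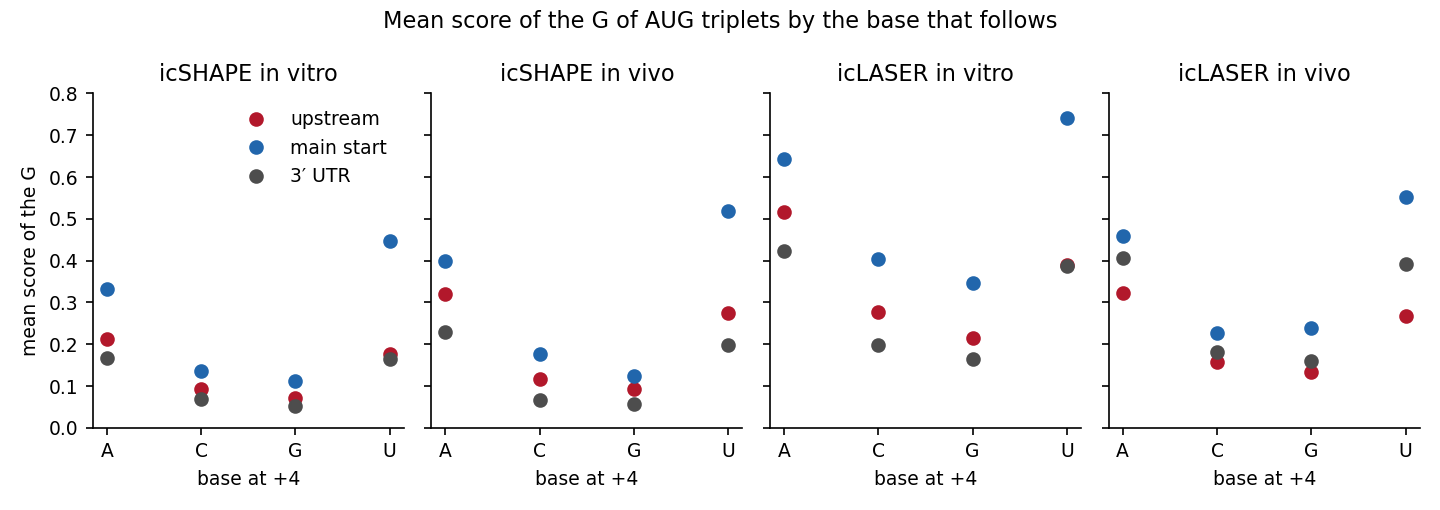
Mean score of the G of AUG triplets (0 to 1, vertical) by the base that follows the triplet (horizontal) in the 4 profiles; red points are upstream AUGs, blue main starts and grey 3′ UTR AUGs. In each profile and group the G scores higher before A or U than before C or G; for upstream AUGs in icSHAPE in vivo the range is from 0.0939 (G) to 0.320 (A).

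A G with a score of at least 0.5 was called reactive. Of the scored upstream triplets, 12.2% (181 of 1482, Wilson 95% interval 10.6 to 14.0) had a reactive G in icSHAPE in vitro and 17.8% (341 of 1919, 16.1 to 19.5) in icSHAPE in vivo. In icLASER it was 32.7% in vitro (649 of 1986, 30.7 to 34.8) and 20.2% in vivo (384 of 1898, 18.5 to 22.1). The intervals cover counting error over triplets only. Main starts of the same genes had 17.0%, 18.8%, 40.7% and 27.3%, and their 3′ UTR AUGs 8.05%, 9.51%, 24.9% and 25%. AUGs inside the coding sequences of the same genes had 13.6%, 16.5%, 32.3% and 26.0%, so the upstream shares were close to those of ordinary coding AUGs in 3 profiles and lower in icLASER in vivo. Outside coding exons the upstream shares were 9.80%, 15%, 28.3% and 15.8%, and inside coding exons of another transcript 16.8%, 22.5%, 41.7% and 28.5%. Inside coding exons the upstream shares were near those of the main starts, and outside them they were lower in every profile. The icLASER share was lower in vivo than in vitro at upstream triplets and alike at 3′ UTR AUGs, with 1 pooled profile behind each share.

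**Figure D2:**
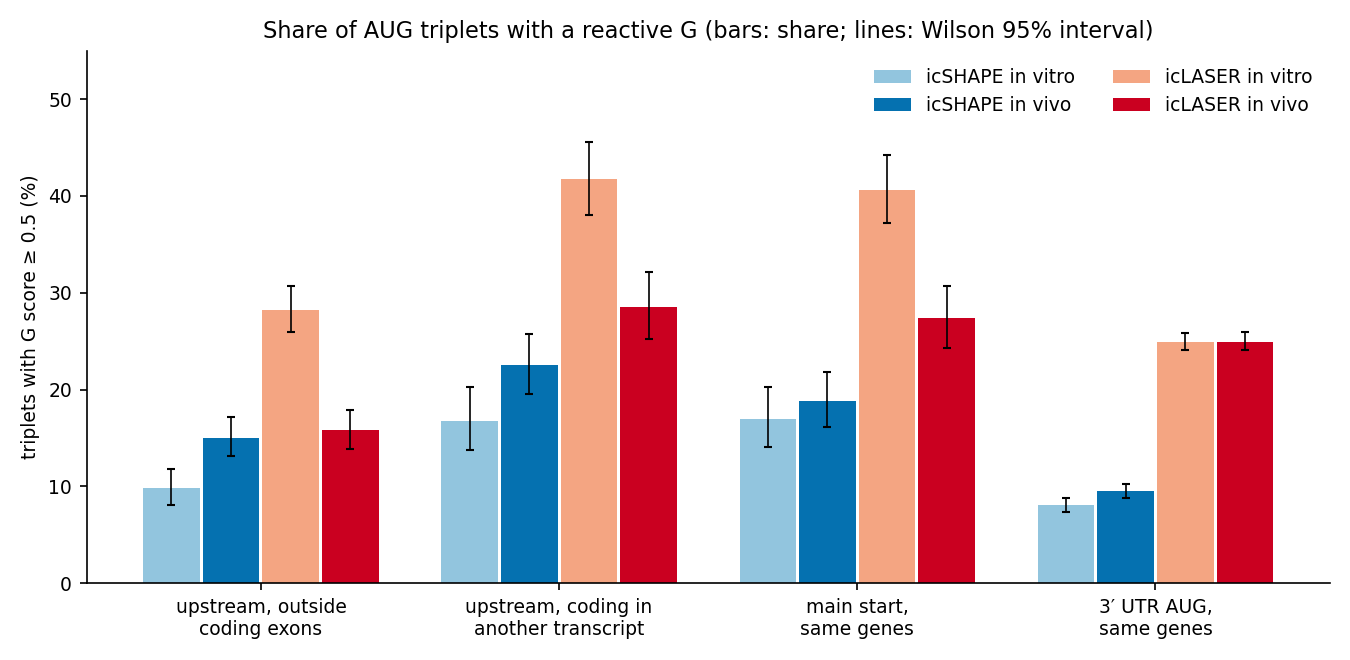
Share of triplets whose G has a score of at least 0.5 (percent, vertical) for upstream AUGs outside coding exons, upstream AUGs inside a coding exon of another transcript, and main starts and 3′ UTR AUGs of the same genes (horizontal); bars in light blue, blue, orange and red are icSHAPE in vitro and in vivo and icLASER in vitro and in vivo, with Wilson 95% intervals as lines. Upstream AUGs outside coding exons run from 9.80% (icSHAPE in vitro) to 28.3% (icLASER in vitro).

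The 2 reagents were compared at triplets scored with both. In vitro, 170 of 1296 upstream triplets had a G reactive in icSHAPE and 453 in icLASER, and 127 in both, which is 74.7% of the first and 28.0% of the second. In vivo, 258 of 1361 were reactive in icSHAPE, 303 in icLASER and 137 in both, or 53.1% and 45.2%. At main starts the shared triplets were 86.8% and 37.8% in vitro and 66.3% and 44% in vivo. At coding AUGs they were 77.5% and 32.5% in vitro and 68.3% and 42.0% in vivo, and at 3′ UTR AUGs 70.7% and 22.6%, and 64.8% and 23.1%. The upstream shares thus lay between those of 3′ UTR and coding AUGs in vitro. In vivo, the shared part of the icSHAPE-reactive triplets (53.1%) was the lowest of the 4 groups. The shared part of the icLASER-reactive triplets (45.2%) was the highest of the 4, close to that of main starts (44%). Upstream triplets also had the lowest icLASER-reactive share in vivo. It was 22.3%, against 29.6% at main starts, 27.6% at coding AUGs and 27.1% at 3′ UTR AUGs. The shared parts were not adjusted for these shares, and their part in the ranking was not tested. With both reagents the G scored higher before A or U (above), and the part of the following base in this overlap was not tested.

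In the comparison of living cells with refolded RNA, the mean differences of the reagents had opposite signs. In icSHAPE the upstream triplets scored in both conditions (1357 triplets of 481 genes) had 0.158 on refolded RNA and 0.183 in cells, a mean difference of 0.0249 ± 0.181 over genes with a median of 0. In icLASER (1586 triplets of 561 genes) the means were 0.233 on refolded RNA and 0.15 in cells, and differed by -0.0836 ± 0.177 with a median of -0.0518. By gene, 228 were higher in vivo and 172 lower in icSHAPE, and 116 higher and 350 lower in icLASER. The icLASER difference was largest at the G, at -0.119, with -0.0497 at the A and -0.0589 at the U. It was alike for closed (-0.0894) and overlapping (-0.0868) triplets, with medians of -0.0517 and -0.0410, and nearer 0 for the in-frame triplets (-0.0460, median 0, 31 genes). It was also alike outside coding exons (-0.0845) and inside those of another transcript (-0.0786).

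The icSHAPE difference was small and not stable. It was 0.0363 for closed, -0.00075 for overlapping and 0.0343 for in-frame triplets. In transcripts with a mean RPKM of at least 20 it was 0.0028, and with each profile divided by its own mean score it was -0.0034. Main starts had 0.0239, coding AUGs 0.0156 and 3′ UTR AUGs 0.0166, all above 0 as deposited. The mean icSHAPE score over all listed nucleotides was 0.141 in vitro and 0.167 in vivo, so the whole profile was higher in vivo.

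The icLASER difference followed the region of the mRNA. Main starts had -0.0814 (1550 genes), coding AUGs -0.0189 (1639 genes) and 3′ UTR AUGs 0.0593 (1286 genes), and in the genes with an upstream triplet the main starts had -0.0680 and the 3′ UTR AUGs 0.0630. With each triplet counted once, the 3′ UTR AUGs had 0.0148 and the upstream triplets -0.0760, so the size of the 3′ UTR value depended on the averaging. The other triplets that end in UG were taken as a comparison inside the 5′ UTRs. CUG had -0.0511, GUG -0.0879 and UUG -0.0757 there, and 0.0436, 0.0536 and 0.0536 in 3′ UTRs (0.0184, 0.0140 and 0.0081 with each triplet counted once). Upstream AUGs at -0.0836 thus lay within the range of the other triplets of the 5′ UTR. The mean over all nucleotides of 5′ UTRs was 0.205 in vitro and 0.16 in vivo in icLASER, against 0.126 and 0.152 in 3′ UTRs.

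A triplet was called different where its mean score differed by at least 0.1 between in vivo and in vitro. In icSHAPE, 342 of the 1357 upstream triplets (25.2%, interval 23.0 to 27.6) were called higher in vivo, where 24.5% of all 37544 AUG triplets scored in both were, and 220 (16.2%) were called lower, where 17.4% of all were. Both shares were close to those of all AUGs. In icLASER, 179 of 1586 (11.3%, interval 9.82 to 12.9) were called higher, where 20.2% of all 45265 AUG triplets were, and 532 (33.5%, interval 31.3 to 35.9) were called lower, where 25.4% of all were. Main starts had 12.1% higher and 37.6% lower in icLASER, so the upstream triplets stood near them. Beside the other AUGs, the upstream triplets thus differed in icLASER and not by much in icSHAPE.

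The AUG itself was compared with the CUG, GUG and UUG triplets of the same 5′ UTR, at the G. In icSHAPE in vitro the G of AUG had 0.154 and that of the others 0.159 over 504 genes, and in vivo 0.203 and 0.196 over 652 genes. In icLASER in vitro the means were 0.364 and 0.353 over 663 genes, and in vivo 0.223 and 0.244 over 661 genes. The 4 mean differences, between -0.0214 and 0.0110, were small beside SDs over genes between 0.266 and 0.330. By count, AUG was the lower in more genes: 154 were higher and 303 lower in icSHAPE in vitro, 259 and 359 in icSHAPE in vivo, 305 and 326 in icLASER in vitro, and 232 and 365 in icLASER in vivo. A gene's AUG mean rests on fewer triplets than its mean over the other 3 kinds, and many single scores are 0.

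A list of 35 symbols of genes described as having regulatory uORFs was looked up in the profiles. Of these, 25 were listed, 16 had a chosen transcript, 13 of those had an upstream AUG and 8 had at least 1 scored in all 4 profiles. Up to 3 triplets nearest the main start were taken from each of the 8, which gave 19. Their scores ranged from 0 in all 4 profiles to 0.975 over the triplet.

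In ATF4 (mean RPKM 57.5, 5′ UTR of 773 nt) the 3 triplets differed. The start-stop AUG 258 nt before the main start had 0.116 in icSHAPE in vitro, 0.247 in icSHAPE in vivo, 0.485 in icLASER in vitro and 0.213 in icLASER in vivo. The AUG 196 nt before, which opens the 3-codon frame, had 0.0233, 0.0707, 0.0787 and 0.0913. The AUG 97 nt before opens the 59-codon frame that overlaps the main start, and had 0, 0.0467, 0.0497 and 0.0630. The main start had 0.205, 0.182, 0.218 and 0.302. Both triplets in the strong context were thus below the main start in all 4 profiles, and the start-stop triplet was above it in icSHAPE in vivo and icLASER in vitro.

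DDIT3 (mean RPKM 16, 5′ UTR of 141 nt) had both its triplets above the main start in every profile. The AUG 129 nt before the main start, which opens a 34-codon frame, had 0.975 and 0.753 in icSHAPE in vitro and in vivo and 0.667 and 0.507 in icLASER. It begins at nucleotide 13 of the transcript, close to the 5′ end. The AUG 120 nt before, in the same frame, had 0.396, 0.333, 0.533 and 0.437. The main start had 0.195, 0.0770, 0.0603 and 0.102. With both reagents the score was lower in vivo than in vitro at both triplets.

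In CEBPG (mean RPKM 8.76) the start-stop AUG 92 nt before the main start was high, with 0.333 and 0.786 in icSHAPE in vitro and in vivo and 0.909 and 0.667 in icLASER. Its AUGs 224 and 154 nt before, which open frames of 10 and 28 codons, were at 0 in 3 profiles and at 0.333 in icLASER in vitro. The main start had 0, 0.0613, 0.0337 and 0.310. The 3 triplets of 1 leader therefore ranged from 0 to 0.909, and most of their single nucleotides were at exactly 0 or 1.

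UCP2, a carrier of the inner mitochondrial membrane (mean RPKM 36.3), had 3 triplets with scores in all profiles. The AUG 246 nt before the main start had 0.336, 0.475, 0.445 and 0.333, that 210 nt before had 0.305, 0.147, 0.880 and 0.542, and that 186 nt before had 0.144, 0.211, 0.236 and 0.415. The G of the first was at 0.605, 0.999, 1 and 1. In SLC35A4, of the nucleotide sugar transporter family (mean RPKM 12.4, 5′ UTR of 1686 nt), all 20 upstream AUGs were scored in all 4 profiles. The 3 nearest the main start were at 0 in icLASER in vivo, as was the main start, and the nearest had 0.499, 0.245 and 0.466 in the other profiles.

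The other listed genes, like those above, had single nucleotides at exactly 0 or 1. ODC1, the first enzyme of polyamine synthesis (mean RPKM 40.7), had 3 triplets at 0 in nearly every profile, with single values of 0.333 in icSHAPE in vivo and in icLASER in vitro. TRIB3, a pseudokinase of the stress response, had a triplet and a main start at 0 in all 4 profiles. ADH5, a formaldehyde-clearing dehydrogenase, had 0.667 in icSHAPE in vitro and 0.333 in the other profiles at an AUG that begins at nucleotide 17 of the transcript, with its G at 1 in all 4.

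Among the most abundant mRNAs with an upstream triplet scored in all 4 profiles, those of ribosomal proteins filled the closed and overlapping classes. The closed AUG of RPS24 (mean RPKM 548.7), 63 nt before the main start, had 0.751 and 0.935 in icSHAPE in vitro and in vivo and 0.693 and 0.322 in icLASER, with its own main start between 0.0013 and 0.0267. The closed AUGs of RPS18 and RPS19, both inside coding exons of other transcripts, had between 0.0663 and 0.311. RPL27 and RPL27A had between 0.191 and 0.317 in vitro and 0 in vivo with both reagents. The overlapping AUG of RPS6, 11 nt before the main start, had 0.168, 0.0683, 0.374 and 0.240, beside 0.338, 0.142, 0.268 and 0.154 at the main start. The overlapping AUGs of RPL37A, RPS19 and RPL27A, all inside coding exons of other transcripts, had between 0.0720 and 0.406, and that of RPLP2, outside them, had 0.333, 0.308, 0 and 0.

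The in-frame class was led by COX6B1 (a subunit of cytochrome c oxidase, mean RPKM 147.1), NDUFB1 and NDUFA6 (complex I), ACTB and GTSF1. The ACTB triplet lies 9 nt before the main start, in a transcript (mean RPKM 29.6) whose annotated coding sequence has no stop codon. It had 0, 0.0297, 0.442 and 0.511, and its G was at 0.909 and 1 in icLASER and at 0 in icSHAPE. Its main start had 0.952, 0.403, 0.580 and 0.373. The triplets of COX6B1, GTSF1 and NDUFA6 were at 0 in both icSHAPE profiles and in icLASER in vitro, and had 0.333, 0.333 and 0.545 in icLASER in vivo. NDUFB1 had 0, 0.333, 0.741 and 0.267.

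The largest single differences between in vivo and in vitro, in transcripts with a mean RPKM of at least 20, are given as a description, since the triplets were chosen by them. In icSHAPE the highest were LYAR (0 in vitro and 1 in vivo), UBA2 (0.0263 and 0.699) and a closed AUG of NDUFB1 (0 and 0.667). The lowest were UQCRQ (1 and 0.333), CACYBP and RPL5 (both 0.667 and 0). The triplets of UQCRQ, CACYBP and RPL5 began 8, 10 and 7 nt into their transcripts, at the very 5′ end. In icLASER the highest were ANXA1 (0 and 0.667), NDUFA6 (0 and 0.545) and NDUFB8 (0.140 and 0.653), and the lowest were MYC (1 and 0), GSTO1 (0.930 and 0) and RBM3 (0.667 and 0). MYC had 0 in both icSHAPE profiles at this triplet, and GSTO1 had 0.458 and 0.353. The GSTO1 triplet began at nucleotide 16 of its transcript. Of these 12 triplets, those of UBA2 and RPL5 lay inside a coding exon of another transcript.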

How the data were processed

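The authors trimmed reads with Trimmomatic and aligned them with Bowtie2 (both named in the submitters' processing notes, versions not given in the sources used here) to transcripts of Ensembl release 88 on GRCh38. With the icSHAPE pipeline they made 1 profile per reagent and condition, pooled over replicates and set against the controls, with no minimum for hit coverage. Each deposited profile holds a transcript's RPKM and an enrichment score per nucleotide, which the authors scaled from 0 to 1. The lowest RPKM listed was 5.01. The profiles list between 12256 and 16648 transcripts. Read counts and depth per library are not analysed here, so no score has an error from depth.

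Of 20512 transcripts in any profile, 15325 had the length given in GENCODE release 44, and 5646 of these were protein coding with an annotated AUG start and a complete 5′ end. The transcript of highest RPKM, averaged over the profiles listing it, was kept for each gene. Coding limits, exons and sequences came from GENCODE, in Python 3.11.15 with numpy 2.4.6, scipy 1.17.1 and matplotlib 3.10.9, and the code was tested on simulated scores with planted differences. Scores were averaged over a triplet, then within a gene. Wilson 95% intervals cover counting error only. The members, lists and comparisons were chosen with earlier results of these data known. Triplets named in the text were those scored in all 4 profiles in listed uORF genes (at most 3 per gene), those nearest the main start in the 5 genes of highest RPKM per frame class, and the 3 highest and 3 lowest differences per reagent. Alternatives covered the choice of transcript, score assignment, filters and averaging. The restrictions to triplets outside coding exons and to transcripts with a complete coding sequence were chosen after seeing the data.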

Additional observations from a re-analysis of the deposited data

Results flagged for a closer look

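At upstream triplets scored in both conditions, the mean score differed between living cells and refolded RNA in opposite directions with the 2 reagents, over sets of triplets that were not the same (1357 in icSHAPE and 1586 in icLASER). It was higher in vivo by 0.0249 in icSHAPE (481 genes) and differed by -0.0836 in icLASER (561 genes). The difference between the reagents was not tested, since each condition is 1 pooled profile. By triplet, 552 were higher and 357 lower in vivo in icSHAPE, and 330 higher and 743 lower in icLASER, so neither direction held for every triplet. The icSHAPE value did not keep its sign when each profile was divided by its own mean score.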

How the results depend on the processing

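Each value rests on 1 pooled profile per reagent and condition, so no difference has a replicate error, no replicate could be left out, and the depth behind a score is unknown. No pairing of replicates was possible because each profile pools them. The profiles of a reagent share their controls. Exact 0s make up most scores at upstream triplets, and GENCODE isoforms may differ from those in these cells. The restrictions to triplets outside coding exons and to complete coding sequences were chosen after seeing the data. Where sets of 4 values follow, they are in the order icSHAPE in vitro, icSHAPE in vivo, icLASER in vitro and icLASER in vivo. The cause of each change below was not tested. With all matched transcripts, each genomic triplet once, upstream minus main start was -0.0601, -0.0580, -0.0483 and -0.0502, and upstream minus 3′ UTR AUG was 0.0337, 0.0391, 0.0641 and -0.0725. The share of reactive G was 11.2%, 15.5%, 29.5% and 18.2%, and the number of upstream triplets was 6911 there. With scores assigned to the next nucleotide, upstream minus main start was -0.0261, -0.0264, 0.00606 and -0.0143, and upstream minus 3′ UTR AUG was 0.0690, 0.0946, 0.117 and -0.0505. Overlapping minus closed was 0.0259, 0.0241, 0.0380 and 0.0337, and strong minus neither context was -0.0144, -0.0290, -0.0660 and -0.0229 there. The share of reactive G was 7.79%, 6.71%, 15.3% and 8.59%, and in vivo minus in vitro was 0.0539 in icSHAPE there. With scores assigned to the nucleotide upstream, upstream minus main start was -0.0176, -0.0297, -0.0355 and -0.0380, and the share of reactive G was 12.0%, 15.4%, 14.9% and 10.4%. At a mean RPKM of at least 20, upstream minus main start was -0.0471, -0.0553, -0.0352 and -0.0613, and upstream minus 3′ UTR AUG was 0.0438, 0.0368, 0.0615 and -0.0963. The share of reactive G was 9.62%, 14.3%, 28.5% and 19.5%, and in vivo minus in vitro was 0.00282 in icSHAPE there. With a score above 0 within 15 nt, upstream minus main start was 0.00760, -0.0149, -0.00574 and -0.0177, and the share of reactive G was 14.2%, 19.8%, 35.7% and 23.4%. At least 50 nt from the 5′ end and 30 nt from the main start, overlapping minus closed was 0.0333, -0.00909, 0.0232 and 0.0340. As medians over genes, upstream minus main start was 0, 0, -0.00900 and 0, and upstream minus 3′ UTR AUG was 0.0154, 0.0379, 0.0698 and -0.102. In vivo minus in vitro was 0 in icSHAPE and -0.0518 in icLASER there. With each triplet counted once, upstream minus main start was -0.0315, -0.0383, -0.0409 and -0.0338, and upstream minus 3′ UTR AUG was 0.0251, 0.0464, 0.0555 and -0.0915. Overlapping minus closed was 0.0416, 0.0204, 0.0544 and 0.0426 there. For the G alone, upstream minus main start was -0.0384, -0.0367, -0.0818 and -0.0806, and upstream minus 3′ UTR AUG was 0.0371, 0.0579, 0.0955 and -0.124. Overlapping minus closed was 0.0101, 0.0113, 0.0601 and 0.0498, and strong minus neither context was -0.108, -0.160, -0.184 and -0.0932 there. In vivo minus in vitro was 0.0513 in icSHAPE there. With profiles divided by their own means, in vivo minus in vitro was -0.00337 in icSHAPE. Outside coding exons, upstream minus main start was -0.0403, -0.0556, -0.0475 and -0.0442, and overlapping minus closed was -0.00987, -0.0232, 0.0235 and 0.00640. Strong minus neither context was -0.0358, -0.0691, -0.0923 and -0.0363, and the share of reactive G was 9.80%, 15%, 28.3% and 15.8% there. With complete coding sequences, overlapping minus closed was 0.0170, -0.00361, 0.0368 and 0.0240. In transcripts present in all 4 profiles, the number of upstream triplets was 1503. At a reactive score of 0.3, the share of reactive G was 15.5%, 22.9%, 40.7% and 25.8%. At a reactive score of 0.8, the share of reactive G was 8.84%, 11.7%, 24.8% and 14.9%. At a called difference of 0.2, the calls were 223 icSHAPE higher in vivo, 146 icSHAPE lower in vivo, 115 icLASER higher in vivo, 367 icLASER lower in vivo. Upstream minus 3′ UTR AUG and strong minus neither context kept the sign of the mean under every alternative run for them.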
